A study of Mus musculus with 6 samples.

Results

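The mitochondrial genome carries 37 genes, and all 37 were found in the table of 39179 genes as the rows whose symbol starts with mt-. They comprise 13 mRNAs, 2 rRNAs and 22 tRNAs, of which 28 lie on the plus strand and 9 on the minus strand. RNA was measured in Ocy454, a mouse osteocytic line derived from a single cell. The cells were expanded at 33 °C and kept for 14 days at 37 °C. They then received vehicle, 1 nM PTH or 0.5 µM YKL-05-093 for 4 h, with 2 libraries per condition. The labels give the vehicle as PBS with 25 mM HCl, while the study's methods name that solvent for animals and DMSO for cultured cells, so the solvent of these libraries is uncertain. PTH is the amino-terminal fragment of parathyroid hormone, and YKL-05-093 is an inhibitor of the salt-inducible kinases. All 6 libraries come from the same line without any gene deletion. Nothing in the labels says whether the duplicates were separate cultures, so the spread between these libraries may be technical. The p-values and standard errors of single genes rest on that spread after it was drawn towards the spread of all genes with similar numbers of reads.

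Mitochondrial DNA is transcribed from both strands into long precursor RNAs that run through many genes. tRNAs sit between most of the mRNAs and rRNAs, and cutting the precursor at the ends of the tRNAs releases the other transcripts. The mRNAs encode subunits of respiratory complexes I, III and IV and of the ATP synthase, and the rRNAs and tRNAs serve the ribosomes that translate them inside the organelle. Fragments of mitochondrial DNA have also been copied into the nuclear chromosomes, where they are annotated as pseudogenes.

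The values are RPKM, reads scaled to the length of the gene and to the counted reads of the library, so levels can be compared between genes of different length. The whole numbers of reads behind them were worked back from the steps between values, and the libraries held between 17505798 and 27983585 counted reads. For a tRNA of 69 bases, 3 reads correspond to 1.55 to 2.48 RPKM, and on longer genes to correspondingly less. The vehicle libraries stood further apart than the others, with a median absolute log2 difference between replicates over all genes of 0.33, against 0.11 for PTH and 0.10 for YKL-05-093. Of 9 osteocyte and osteoblast markers, 5 had a mean of at least 1 RPKM, while Sost and Fgf23 had at most 3 reads in any library. Mepe had at most 4 reads, Dmp1 had 0.376 to 1.155 RPKM and Phex 0.764 to 4.93 RPKM, so the markers of osteocytes were absent or low. The summed level of the 9 was 128 to 143 RPKM in vehicle, 209 to 223 in PTH and 145 to 152 in YKL-05-093. Pdpn reached the highest single level, with 53.1 to 170.5 RPKM over the 6 libraries. Sp7 had 11.1 to 46.0, Bglap 6.61 to 27.1 and Runx2 7.02 to 19.5 RPKM. The sum therefore does not describe the 9 genes alike. Cdh5 (endothelial) and Ckm (muscle) had no reads, Emr1 and Acp5 (macrophage and osteoclast) and Adipoq and Plin1 (adipocyte) at most 1 read, and the 3 epithelial markers at most 3. The 5 macrophage and osteoclast markers summed to 3.83 to 4.54 RPKM, nearly all of it Cd68, and Fabp4 of the 3 adipocyte markers had 1.08 to 2.27 RPKM. The 3 endothelial markers summed to 0.514 to 0.652 RPKM in vehicle, 0.910 to 1.16 in PTH and 1.48 to 1.79 in YKL-05-093, mostly Kdr, which had up to 223 reads, and the 3 muscle markers summed to 0.280 to 0.437 RPKM. The part of these markers in the results that follow was not tested.

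Both rRNAs were the most abundant of the mitochondrial transcripts, although the total RNA had been depleted of ribosomal RNA before the libraries were made. mt-Rnr2, the RNA of the large mitochondrial ribosomal subunit (chrM:1094-2675, plus strand, GRCm38), measured 62053 and 80386 RPKM in vehicle, 74577 and 89004 in PTH, and 71097 and 86601 in YKL-05-093. mt-Rnr1, the RNA of the small subunit (chrM:70-1024, plus strand), measured 15221 and 19543 RPKM in vehicle, 16138 and 20544 in PTH, and 16721 and 17753 in YKL-05-093. The conditions overlapped for both rRNAs, and replicate 2 was the higher one in each condition.

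Among the mRNAs, mt-Co1 was the highest. It encodes the catalytic subunit of cytochrome c oxidase (complex IV; chrM:5328-6872, plus strand) and measured 1290 and 1533 RPKM in vehicle, 1459 and 1714 in PTH, and 1180 and 1674 in YKL-05-093. mt-Nd1, a subunit of complex I, the NADH dehydrogenase (chrM:2751-3707, plus strand), came next with 359 and 434 RPKM in vehicle, 346 and 451 in PTH, and 318 and 428 in YKL-05-093. The ranges of mt-Co1 and mt-Nd1 did not overlap with each other or with those of the mRNAs that follow.

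mt-Nd2, another subunit of complex I (chrM:3914-4951, plus strand), measured 231 and 250 RPKM in vehicle, 226 and 312 in PTH, and 213 and 254 in YKL-05-093. mt-Cytb, the cytochrome b of complex III (chrM:14145-15288, plus strand), measured 233 and 247 RPKM in vehicle, 218 and 305 in PTH, and 193 and 261 in YKL-05-093. mt-Nd5, also of complex I (chrM:11742-13565, plus strand), measured 239 and 173 RPKM in vehicle, 185 and 242 in PTH, and 151 and 267 in YKL-05-093. These levels overlapped, so the order of mt-Nd2, mt-Cytb and mt-Nd5 was not resolved beyond their spread.

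mt-Nd6 is the only mRNA on the minus strand (chrM:13552-14070) and encodes a further subunit of complex I. It measured 272 and 96.2 RPKM in vehicle, 144 and 203 in PTH, and 98.4 and 282 in YKL-05-093, the widest spread between replicates among the well covered mRNAs. Relative to mt-Nd5, its neighbour on the other strand, the level of mt-Nd6 was 1.14 and 0.555 in vehicle, 0.778 and 0.838 in PTH, and 0.652 and 1.06 in YKL-05-093, and the conditions overlapped. Both genes overlap at their ends, and whether the counting used strand is not given in the sources used here, so reads of that overlap cannot be told apart. mt-Nd4 (chrM:10167-11544, plus strand), of complex I as well, was lower, with 72.4 and 68.2 RPKM in vehicle, 60.9 and 85.4 in PTH, and 54.5 and 65.9 in YKL-05-093.

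**Figure D1:**
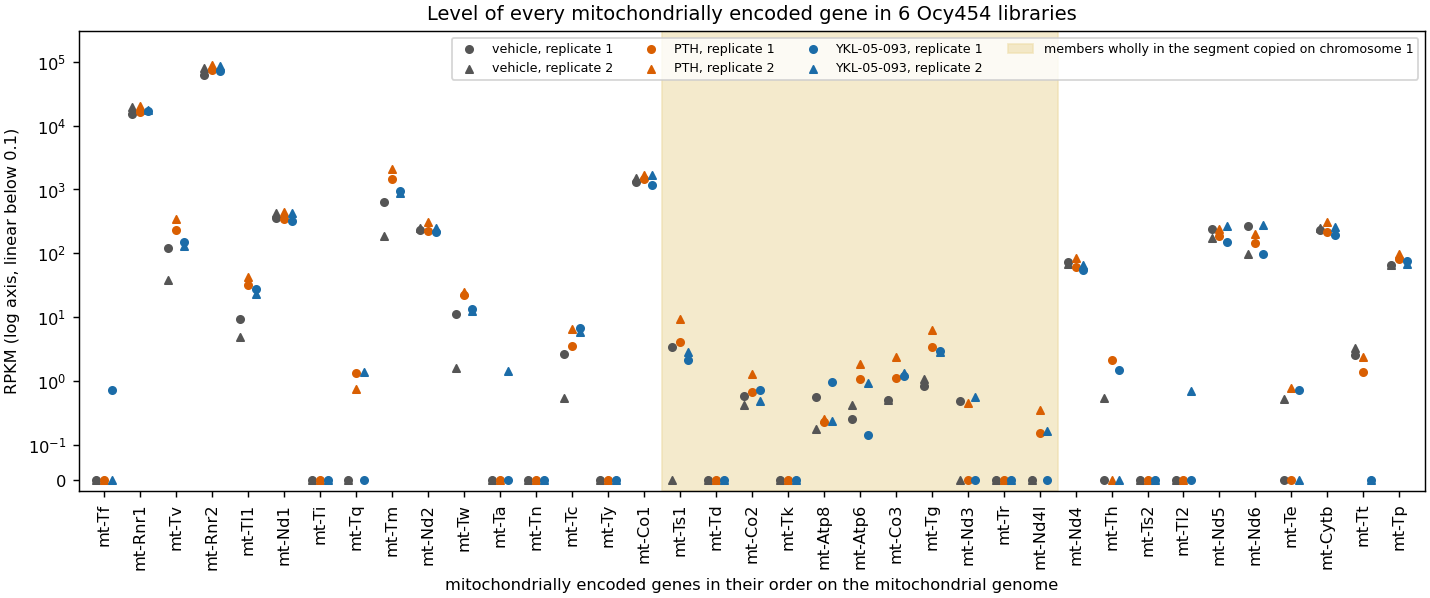
Level (RPKM, log axis that is linear below 0.1) of each of the 37 mitochondrially encoded genes in their order on the mitochondrial genome, with 1 point per library (circles, replicate 1; triangles, replicate 2; grey, vehicle; orange, PTH; blue, YKL-05-093). Both rRNAs lie at 15221 RPKM or more, 7 mRNAs lie between 54.5 and 1714 RPKM, and the shaded genes, which lie wholly inside a segment that is copied on chromosome 1, lie under 10 RPKM.

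The other 6 mRNAs were nearly absent from the counts. They ranged from 0 to 2.34 RPKM, or 0 to 35 reads, against 54.5 to 1714 RPKM for the 7 described so far. Of the 6, mt-Co2, mt-Co3, mt-Nd3 and mt-Nd4l share a complex with some of those 7, while mt-Atp6 and mt-Atp8 belong to the ATP synthase. mt-Co2, the subunit of complex IV that receives electrons from cytochrome c (chrM:7013-7696), had 7 and 8 reads in vehicle, 10 and 17 in PTH, and 10 and 7 in YKL-05-093. mt-Co3, the remaining mitochondrially encoded subunit of complex IV (chrM:8607-9390), had 7 and 11 reads in vehicle, 19 and 35 in PTH, and 19 and 22 in YKL-05-093. For comparison, mt-Co1 of the same complex had between 34870 and 66217 reads.

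mt-Atp6, the proton channel subunit of ATP synthase (chrM:7927-8607), had 3 and 8 reads in vehicle, 16 and 24 in PTH, and 2 and 13 in YKL-05-093. mt-Atp8, a small subunit of the same enzyme whose gene overlaps mt-Atp6 (chrM:7766-7969), had 1 to 4 reads in every library. mt-Nd3 of complex I (chrM:9459-9806) had 3 and 0 reads in vehicle, 0 and 3 in PTH, and 0 and 4 in YKL-05-093, and mt-Nd4l (chrM:9877-10173), also of complex I and overlapping mt-Nd4, had 0 to 2 reads. All 6 lie on the plus strand, and they are neighbours on the mitochondrial genome, with only tRNAs between them.

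The segment that holds these 6 mRNAs has a near-identical nuclear copy. In the GENCODE M21 annotation of GRCm38, 7 unprocessed pseudogenes on the minus strand of chromosome 1 (chr1:24611535-24616197) match mitochondrial genes between chrM:6390 and chrM:11042, a stretch of 4653 bases. They are Gm29216 (matching mt-Co1), Gm28661 (mt-Co2), Gm10925 (mt-Atp6), Gm28437 (mt-Co3), Gm28438 (mt-Nd3), Gm10222 (mt-Nd4l) and Gm28439 (mt-Nd4). Their order and spacing follow those of the mitochondrial genes to within 1 base. The matches to mt-Co2, mt-Atp6, mt-Co3, mt-Nd4l and mt-Nd4 hold no mismatch, over 681, 678, 783, 294 and 876 bases. Those to mt-Nd3 and mt-Co1 hold 1 mismatch each, in 345 and 483 bases. mt-Atp8 has no annotated copy of its own, but it lies between the matches of mt-Co2 and mt-Atp6, whose spacing is the same on both chromosomes. Altogether 11 members, the 6 mRNAs and 5 tRNAs (mt-Ts1, mt-Td, mt-Tk, mt-Tg and mt-Tr), lie wholly inside the segment, while mt-Co1 and mt-Nd4 reach into it.

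The reference sequences of mt-Nd4l and of the start of mt-Nd3 are shown because they bear on what a single read of 50 bases can tell apart. The study sequenced pairs of reads of that length, and what the second read of a pair adds was not examined. The sequences are those of the GENCODE M21 transcripts on GRCm38, in the direction of the gene. Capitals in mt-Nd4l (chrM:9877-10173) mark the bases beyond the match with Gm10222, and capitals in mt-Nd3 (chrM:9459-9501, plus strand) and Gm28438 (chr1:24613077-24613119, minus strand) mark the only base that differs.
mt-Nd4l: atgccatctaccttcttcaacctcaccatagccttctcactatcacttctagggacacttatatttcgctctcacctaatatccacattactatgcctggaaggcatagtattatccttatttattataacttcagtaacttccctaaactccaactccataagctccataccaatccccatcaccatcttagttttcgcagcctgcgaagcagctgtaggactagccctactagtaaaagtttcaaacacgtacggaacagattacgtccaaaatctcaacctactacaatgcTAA
mt-Nd3: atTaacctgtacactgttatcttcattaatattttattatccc
Gm28438: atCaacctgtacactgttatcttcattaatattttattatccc
In mt-Nd4l only the last 3 bases reach beyond the match, and in mt-Nd3 the difference sits in the first codon.

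A less similar copy on chromosome 2 gives a contrast. Gm13340 (chr2:22588103-22589647, minus strand) matches mt-Co1 over its whole length of 1545 bases at 97.61% identity, with 37 mismatches. The first 120 bases of both are shown, from chrM:5328-5447 on the plus strand and chr2:22589528-22589647 on the minus strand, with the 3 bases that differ in capitals.
mt-Co1: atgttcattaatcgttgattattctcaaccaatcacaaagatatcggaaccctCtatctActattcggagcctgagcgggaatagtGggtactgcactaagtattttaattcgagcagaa
Gm13340: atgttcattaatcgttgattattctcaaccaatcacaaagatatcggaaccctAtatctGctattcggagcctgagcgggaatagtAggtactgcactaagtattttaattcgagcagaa
mt-Co1 had the highest level of all mRNAs, and Gm13340 had 0.444 to 1.22 RPKM (12 to 42 reads).

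Counted in 50-base windows, 100% of mt-Co2, 99.9% of mt-Co3, 99.5% of mt-Atp6, 98.8% of mt-Nd4l and 98.0% of mt-Nd3 had an exact match in an annotated nuclear transcript. The corresponding shares were 62.2% for mt-Nd4, 51.1% for mt-Co1, 8.19% for mt-Nd2, 7.61% for mt-Nd5 and 1.04% for mt-Rnr2, and 0% for mt-Nd1, mt-Nd6, mt-Cytb, mt-Rnr1 and mt-Atp8. The 5 mRNAs with nearly complete matches were all among the 6 with almost no reads, and mt-Atp8 was the exception with no annotated match. The windows describe single reads and not pairs. With no nuclear genome sequence at hand, the bases between the annotated copies were not compared. If all reads of mt-Nd4 are assigned to the 502 bases outside its match, its level becomes 150 to 234 RPKM. For comparison, mt-Nd5 had 151 to 267 RPKM and mt-Nd6 96.2 to 282 RPKM. That step assumes that no read inside the match was counted, which was not tested. The same step for mt-Co1, over the 1062 bases outside its match on chromosome 1, gives 1716 to 2492 RPKM. Those bases still lie within its match to Gm13340 on chromosome 2.

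How reads with several matching places were counted is not given in the sources used here, and its part in the low values was not tested. Of the 11 nuclear copies found, 5 are rows of the table, 1 of them on chromosome 1. That one, Gm10222, had 2 and 16 reads in vehicle, 17 and 14 in PTH, and 8 and 7 in YKL-05-093, so its counts exceeded those of mt-Nd4l, the gene it copies, in each library. The levels of these 6 mRNAs are for this reason given as counted and not as amounts of the transcripts.

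**Figure D2:**
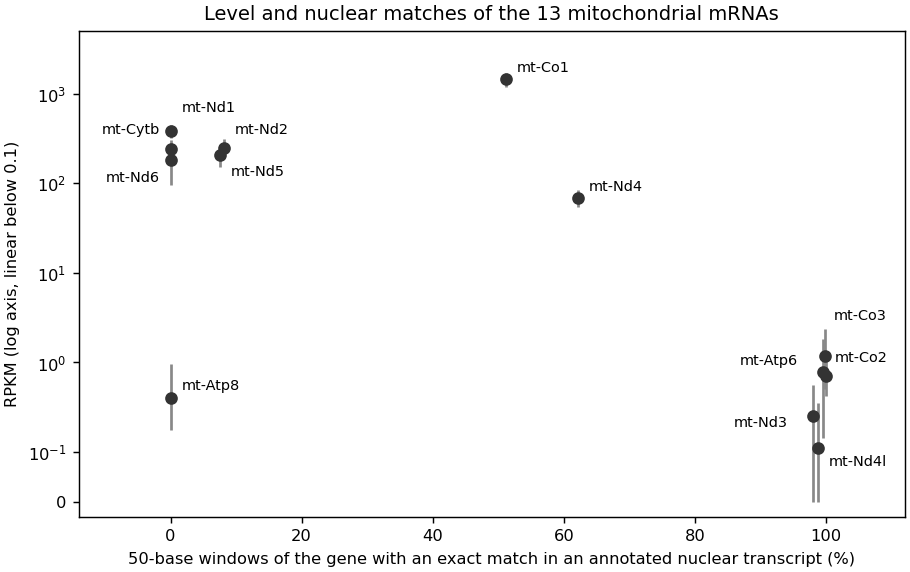
Mean level of each of the 13 mitochondrial mRNAs over 6 libraries (RPKM, log axis that is linear below 0.1; vertical lines, lowest to highest library) against the share of its 50-base windows with an exact match in an annotated nuclear transcript. The 5 mRNAs at 98.0% or more lie under 2.4 RPKM, mt-Co1 and mt-Nd4 lie in between on the horizontal axis and high on the vertical one, and mt-Atp8 is low without an annotated match.

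The tRNAs were covered very unevenly. No reads were counted in any library on 7 of the 22 (mt-Ti, mt-Tn, mt-Ty, mt-Td, mt-Tk, mt-Tr and mt-Ts2), and 13 of the 22 had at most 3 reads in every library. Only mt-Tm, mt-Tv and mt-Tp had a mean of at least 50 reads. Mature tRNAs are barely longer than 1 read, heavily modified and tightly folded, and are as a class poorly captured by library protocols of this kind, so a low count cannot be read as a low amount. The 5 tRNAs with the highest mean level are shown in the direction of the gene, with the anticodon in capitals, because both calls reported further on are among them. They are mt-Tm (chrM:3845-3913, plus strand), mt-Tv (chrM:1025-1093, plus strand), mt-Tp (chrM:15356-15422, minus strand), mt-Tl1 (chrM:2676-2750, plus strand) and mt-Tw (chrM:4950-5016, plus strand).
mt-Tm: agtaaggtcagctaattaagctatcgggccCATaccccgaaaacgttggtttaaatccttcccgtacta
mt-Tv: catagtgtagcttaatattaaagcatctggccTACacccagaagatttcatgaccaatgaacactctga
mt-Tp: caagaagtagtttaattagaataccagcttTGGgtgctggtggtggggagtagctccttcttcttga
mt-Tl1: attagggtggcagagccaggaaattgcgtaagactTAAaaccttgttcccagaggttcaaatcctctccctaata
mt-Tw: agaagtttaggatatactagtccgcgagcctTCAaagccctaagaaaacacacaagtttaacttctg
They read codons of methionine, valine, proline, leucine and tryptophan, respectively. None of their 50-base windows had an exact match in an annotated nuclear transcript. mt-Tv fills the gap between mt-Rnr1 and mt-Rnr2 base to base, mt-Tl1 that between mt-Rnr2 and mt-Nd1, mt-Tm ends at the base before mt-Nd2, and mt-Tw overlaps the last 2 bases of mt-Nd2.

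mt-Tm, the tRNA for methionine, measured 632 and 187 RPKM in vehicle, 1447 and 2057 in PTH, and 931 and 876 in YKL-05-093, from 356 to 2668 reads. The 3 conditions did not overlap, with vehicle lowest and PTH highest. mt-Tv, the tRNA for valine, measured 119 and 38.4 RPKM in vehicle, 231 and 344 in PTH, and 149 and 132 in YKL-05-093, in the same order and again without overlap. The vehicle replicates differed from each other more than the PTH or YKL-05-093 replicates did for both genes.

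mt-Tl1, a tRNA for leucine, had 9.26 and 4.83 RPKM (12 and 10 reads) in vehicle, 31.9 and 42.5 RPKM (51 and 60 reads) in PTH, and 27.3 and 23.5 RPKM (41 and 36 reads) in YKL-05-093. mt-Tw, the tRNA for tryptophan, had 11.3 and 1.62 RPKM (13 and 3 reads) in vehicle, 22.4 and 24.6 RPKM (32 and 31 reads) in PTH, and 13.4 and 12.4 RPKM (18 and 17 reads) in YKL-05-093. Both showed the order of mt-Tm and mt-Tv without overlap, on far fewer reads. mt-Tp, the tRNA for proline and the only one of the 5 on the minus strand, was flatter, with 64.9 and 66.1 RPKM in vehicle, 81.3 and 99.3 in PTH, and 76.9 and 67.9 in YKL-05-093.

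**Figure D3:**
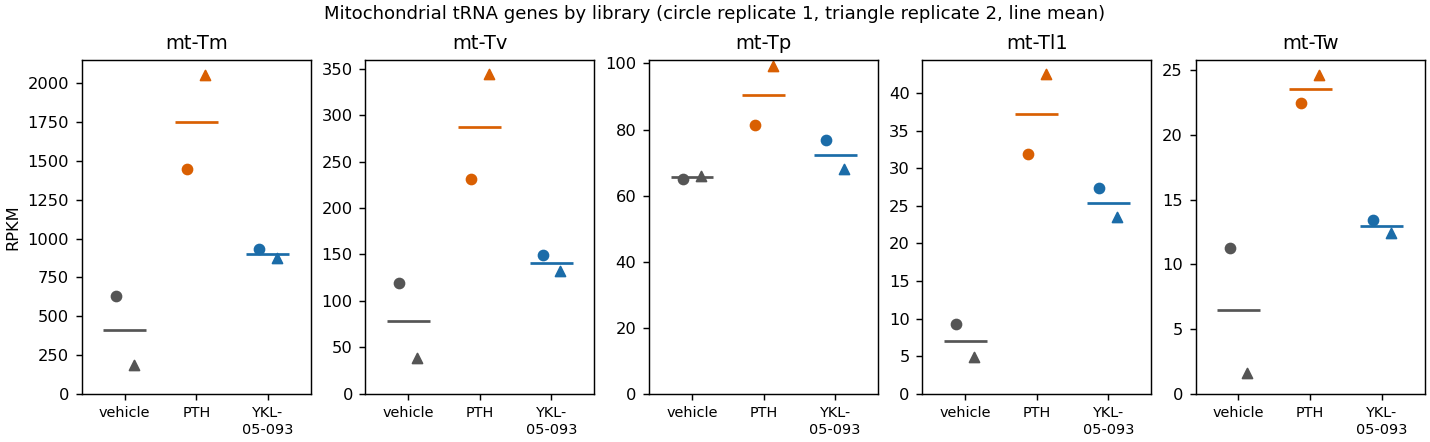
Level (RPKM, linear axes from 0, a separate scale in each panel) of the 5 mitochondrial tRNAs with the highest mean level in vehicle, PTH and YKL-05-093 libraries (circle, replicate 1; triangle, replicate 2; line, mean of both). In all 5 panels both PTH libraries lie above both vehicle libraries, and the vehicle replicates of mt-Tm, mt-Tv and mt-Tw lie far apart.

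Of the tRNAs that were at 0 in some libraries only, mt-Ts1 (serine) had 4 and 0 reads in vehicle, 6 and 12 in PTH, and 3 and 4 in YKL-05-093. mt-Tt (threonine) had 3 and 6 reads in vehicle, 2 and 3 in PTH, and none in either YKL-05-093 library. mt-Tf, mt-Tq, mt-Ta, mt-Th, mt-Tl2 and mt-Te had at most 3 reads in each library, too few for any comparison. The remaining tRNAs, mt-Tc and mt-Tg, had 1 to 9 and 1 to 8 reads.

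The first comparison asked which genes PTH changed against vehicle. Genes were tested with limma on log2(RPKM + 0.1) if they reached 0.5 RPKM in at least 2 of the 6 libraries, and a call required both an adjusted p-value under 0.05 and a difference of more than 2-fold. This filter left 25 of the 37 members, namely 11 mRNAs, both rRNAs and 12 tRNAs. A tRNA can pass it through the condition in which it is high, so counts over these 25 are descriptive. mt-Tl1 rose by 2.44 on the log2 scale (SE 0.39, adjusted p = 0.0238, limma), the only member called, and no member was called lower. Over all 14261 genes tested, 1.09% were called higher and 0.813% lower.

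mt-Tm and mt-Tv were close behind in size but did not pass the adjustment over all genes. The log2 difference was 2.33 (SE 0.50, adjusted p = 0.0741, limma) for mt-Tm and 2.06 (SE 0.48, adjusted p = 0.0949, limma) for mt-Tv. It was 2.42 (SE 0.79, adjusted p = 0.238, limma) for mt-Tw and 0.46 (SE 0.20, adjusted p = 0.378, limma) for mt-Tp. The call of mt-Tl1 depended on both PTH libraries, and without replicate 1 or replicate 2 of PTH its adjusted p was 0.183 or 0.327 (limma), and with no filter on low values it was 0.159. Without vehicle replicate 1 the log2 difference of mt-Tm was 3.20 (adjusted p = 0.00149, limma), and without vehicle replicate 2 it was 1.45 (adjusted p = 0.0143, limma). For mt-Tv these values were 2.88 (adjusted p = 0.00367, limma) and 1.24 (adjusted p = 0.0272, limma). With 1 library left on that side, each of these fits assumes that the lone library varies like the PTH libraries.

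The rRNAs and the well covered mRNAs did not pass in this comparison, and their differences were small. For the 7 mRNAs with a mean of at least 50 reads the log2 difference ranged from -0.00 (mt-Nd1) to 0.17 (mt-Co1), with a median of 0.08, against a median of -0.03 over all genes tested. With 1 library left out this median ranged from -0.138 to 0.285, and 6 of the 7 changed direction. The standard errors of these 7 lay between 0.20 and 0.44, so that differences of this size were below their standard errors. mt-Rnr1 differed by 0.08 (SE 0.31) and mt-Rnr2 by 0.21 (SE 0.40) on the log2 scale. Among the 12 members with a mean of at least 50 reads, mt-Tm, mt-Tv and mt-Tp had both PTH libraries above both vehicle libraries and none had both below, while 19.1% of all genes tested lay above and 24% below. At an unadjusted p under 0.05, 2 of the 12 (mt-Tm and mt-Tv) were higher, against 6.41% of all genes.

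Of the mRNAs in the copied segment, mt-Atp6 had a log2 difference of 1.83 (SE 0.47, adjusted p = 0.130, limma) and mt-Co3 of 1.51 (SE 0.43, adjusted p = 0.170, limma) after PTH. mt-Co2 differed by 0.81 (SE 0.48, adjusted p = 0.569, limma). None passed, and the values rest on 3 to 35 reads. Gm10222, the copy on chromosome 1 that has a row, had 0.386 and 1.93 RPKM in vehicle and 2.66 and 2.48 in PTH, and was thus higher in both PTH libraries as well.

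The next comparison asked the same of YKL-05-093 against vehicle, with the same vehicle libraries. No member was called with limma, and voom on the recovered reads also called 0. Among the 12 members with a mean of at least 50 reads, 1 (mt-Tm) was higher at an unadjusted p under 0.05 and 0 were lower. Over the 25 tested members, 4 were higher at that limit (mt-Tl1, mt-Tm, mt-Tc and mt-Co3) and 1 lower (mt-Tt). After PTH the counts over the 25 were 8 higher and 0 lower, against 6.41% and 6.86% of all genes. Members can pass the filter through the condition in which they are high, so the counts over the 25 are descriptive. Over all 14255 genes tested, 0.666% were called, and 3.9% were higher and 4.76% lower at an unadjusted p under 0.05.

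mt-Tl1, the member called for PTH, differed by 1.90 on the log2 scale (SE 0.40, adjusted p = 0.122, limma). mt-Tc, with 1 to 9 reads in each library, differed by 2.28 (SE 0.84, adjusted p = 0.470, limma). mt-Tm differed by 1.39 (SE 0.49, adjusted p = 0.452, limma), mt-Tv by 1.05 (SE 0.47, adjusted p = 0.614, limma) and mt-Tp by 0.14 (SE 0.19, adjusted p = 0.899, limma). Each was higher in both YKL-05-093 libraries than in both vehicle libraries, as were 15.7% of all genes. mt-Tt was lower, with no reads after YKL-05-093 against 3 and 6 in vehicle (adjusted p = 0.156, limma), a difference at the edge of what this depth can show.

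The 7 well covered mRNAs had log2 differences between -0.23 (mt-Nd4, SE 0.17) and 0.04 (mt-Nd6, SE 0.59) after YKL-05-093. Their median was -0.05, against -0.04 over all genes tested, and ranged from -0.317 to 0.123 with 1 library left out. mt-Nd4 was the only one of the 7 without overlap, with both YKL-05-093 libraries below both vehicle libraries, as for 22.1% of all genes. mt-Rnr1 and mt-Rnr2 differed by -0.00 (SE 0.29) and 0.15 (SE 0.41). mt-Co3 in the copied segment differed by 1.18 (SE 0.37, adjusted p = 0.364, limma).

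The direct comparison of PTH with YKL-05-093 leaves the vehicle libraries out. mt-Tv was higher after PTH by 1.01 on the log2 scale (SE 0.15, adjusted p = 0.000241, limma) and was the only member called, while 0.737% of the 14255 genes tested were called higher and 0.47% lower. mt-Tm was higher by 0.93 (SE 0.11, adjusted p = 2.84e-05, limma), which passed the adjusted p but stayed under 2-fold. Its PTH replicates differed 1.42-fold from each other, and its small standard error draws on the spread of all genes with similar numbers of reads. Without the limit on the fold change, 2 of the 25 members passed, both higher, against 4.88% of all genes. mt-Tl1 differed by 0.54 (SE 0.24, adjusted p = 0.191, limma), mt-Tw by 0.86 (SE 0.30, adjusted p = 0.0930, limma) and mt-Tp by 0.31 (SE 0.17, adjusted p = 0.290, limma). All 5 had both PTH libraries above both YKL-05-093 libraries, as had 26.3% of all genes.

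The call of mt-Tv was a narrow one, since its fold lies next to the limit of 2-fold. It was lost when any of the 4 libraries was left out (adjusted p between 0.103 and 0.224, limma), with 1 fit of all 6 libraries (adjusted p = 0.624, limma), with no filter on low values (adjusted p = 0.172, limma) and with the trend on the mean value (adjusted p = 0.0708, limma). On size alone, it was also lost with median-of-ratios scaling and with voom (log2 difference 0.99 each).

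All 7 well covered mRNAs were higher on average after PTH than after YKL-05-093, by 0.04 (mt-Nd6) to 0.27 (mt-Nd4) on the log2 scale with a median of 0.17, against a median of 0.01 over all genes. For 6 of the 7 the order turned when some 1 library was left out, and the median then ranged from -0.083 to 0.421. None passed the adjustment, all 7 overlapped between the conditions, and mt-Nd4 alone passed the unadjusted limit of 0.05 (adjusted p = 0.196, limma), against 11.4% of all genes that were higher at that limit. mt-Rnr1 differed by 0.08 (SE 0.27) and mt-Rnr2 by 0.05 (SE 0.79). The standard errors and p-values in this comparison also draw on the spread of all genes. They can therefore lie below or above what the 4 libraries alone would give.

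**Figure D4:**
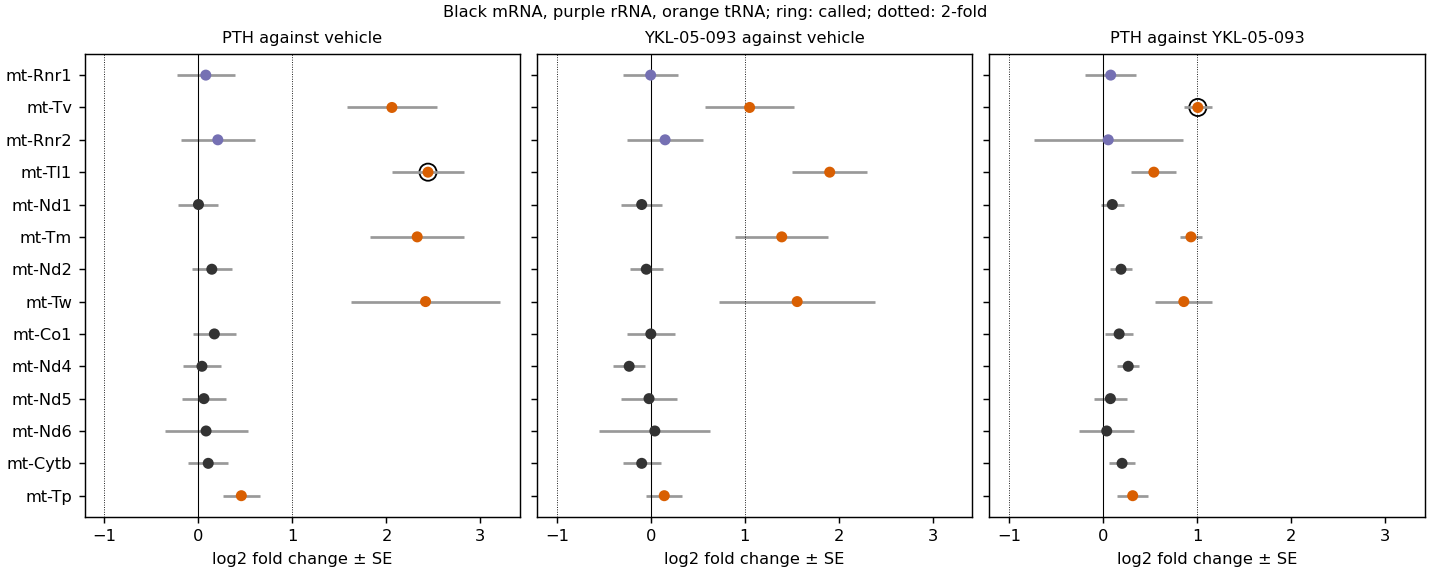
Log2 fold change (points) with its standard error (lines) in the 3 comparisons for the rRNAs (purple), the 7 well covered mRNAs (black) and the 5 tRNAs of highest level (orange), in genome order. Rings mark the 2 calls, mt-Tl1 for PTH against vehicle and mt-Tv for PTH against YKL-05-093, and dotted lines mark a 2-fold difference. The mRNAs and rRNAs lie near 0 in each panel.

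As a share of all counted reads, the 37 genes took 11.62% and 14.95% in the vehicle libraries, 13.70% and 16.49% in the PTH libraries, and 13.14% and 15.82% in the YKL-05-093 libraries. The means were 13.3% ± 2.36 (SD, n = 2), 15.1% ± 1.97 (SD, n = 2) and 14.5% ± 1.90 (SD, n = 2), and the conditions overlapped (p = 0.667 in each of the 3 comparisons, exact permutation test, two-sided). With 2 libraries against 2 this test cannot give a p below 0.3333. Most of the share was rRNA, which took 11.26% to 16.03%, and mt-Rnr2 alone took 9.81% to 14.07%.

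The mRNAs together took 0.297% to 0.442% of the counted reads. For each mRNA read there were 32.01 and 38.51 rRNA reads in vehicle, 37.4 and 36.3 in PTH, and 43.2 and 35.9 in YKL-05-093, which also overlapped. The depletion kit acts on rRNA, so this ratio describes the libraries as sequenced and not the cells.

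The tRNAs took 0.00574% and 0.00206% of the reads in vehicle, 0.0124% and 0.0176% in PTH, and 0.00824% and 0.00766% in YKL-05-093. The 95% Wilson intervals of the vehicle libraries, which cover counting error only, were 0.00540% to 0.00611% and 0.00189% to 0.00223%. The conditions did not overlap, and the exact permutation test gave its smallest possible p, 0.3333, in each comparison. Set against the mitochondrial mRNA reads of the same library in place of all counted reads, the conditions again did not overlap. Most of the tRNA reads were on mt-Tm, with 752 of 1005 and 356 of 575 in the vehicle libraries. These numbers were 2126 of 2688 and 2668 of 3363 in PTH, and 1284 of 1672 and 1236 of 1589 in YKL-05-093. The tRNA share therefore largely repeats the result for mt-Tm and does not describe the other tRNAs alike.

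Reads on short genes of the nucleus moved in part in the same way. Nuclear genes under 300 bases took 1.55% and 1.66% of the reads in vehicle, 2.39% and 2.70% in PTH, and 2.64% and 1.51% in YKL-05-093. Both PTH libraries were thus above both vehicle libraries in this share too, while the YKL-05-093 replicates lay on either side of vehicle. The part of this share in the tRNA differences was not tested. In bulk RNA, fewer cells with a transcript and less of it per cell cannot be told apart.

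**Figure D5:**
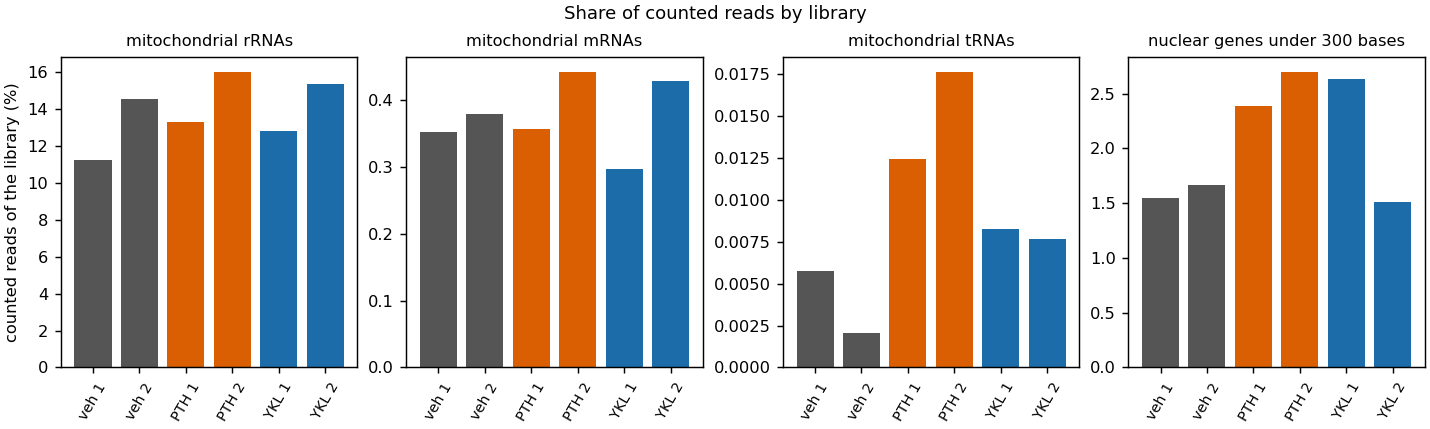
Share of the counted reads of each library (percent, linear axes from 0 with a separate scale in each panel) on mitochondrial rRNAs, mRNAs and tRNAs and on nuclear genes under 300 bases, with 1 bar per library (grey, vehicle; orange, PTH; blue, YKL-05-093). The rRNA and mRNA bars overlap between conditions, the tRNA bars are ordered vehicle, YKL-05-093, PTH, and both PTH bars of the short nuclear genes exceed the vehicle bars.

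Nuclear genes supply the machinery that transcribes, processes and translates the mitochondrial RNAs, and 5 lists of them were read from the same fits. None of their genes was called with limma in any of the 3 comparisons. At the unadjusted limit of 0.05, 6.41% of all genes tested were higher and 6.86% lower after PTH, and 3.9% and 4.76% after YKL-05-093, both against vehicle. In the list for transcription and replication of mitochondrial DNA, 15 genes were tested, with a median log2 difference of -0.06 after PTH and 0.03 after YKL-05-093, and 1 (lower) and 0 of them passed the unadjusted limit. Peo1, the helicase of mitochondrial DNA replication, had 12.3 and 9.62 RPKM in vehicle, 7.59 and 7.75 in PTH, and 8.72 and 8.60 in YKL-05-093. Its log2 difference was -0.50 after PTH (adjusted p = 0.278, limma). Mterfd3 differed by 0.34 after PTH, Polg2, the accessory subunit of the mitochondrial DNA polymerase, by 0.35 after YKL-05-093, and Mterfd1 by -0.34 after YKL-05-093, with adjusted p-values of 0.454, 0.628 and 0.629 (limma).

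In the list for RNA processing, stability and modification, 23 genes were tested, with medians of -0.10 after PTH and -0.16 after YKL-05-093, and 3 (2 higher, 1 lower) and 4 (all lower) of them passed the unadjusted limit. Mrm1, a methyltransferase of the large mitochondrial rRNA, had a mean of 12.8 RPKM ± 0.821 (SD, n = 2) in PTH and 9.83 ± 0.202 (SD, n = 2) in YKL-05-093. It differed by 0.46 between PTH and vehicle (adjusted p = 0.280, limma) and by 0.38 between PTH and YKL-05-093 (adjusted p = 0.00788, limma), under the 2-fold limit. Nsun4, which methylates the small mitochondrial rRNA, differed by 0.57 after PTH (adjusted p = 0.254, limma). Pde12, which removes poly(A) tails in mitochondria, and Fastkd5, needed to process mRNA ends that no tRNA flanks, differed by -0.52 and -0.51 after YKL-05-093 (adjusted p = 0.339 and 0.452, limma).

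Of the regulators of mitochondrial biogenesis, 6 were tested, and the medians were -0.06 after PTH and -0.08 after YKL-05-093. Pprc1, a coactivator related to PGC-1alpha, was the 1 gene that passed the unadjusted limit in both comparisons. It had 4.10 and 2.88 RPKM in vehicle, 2.01 and 1.86 in PTH, and 1.81 and 2.05 in YKL-05-093, a log2 difference of -0.80 each time (adjusted p = 0.125 and 0.235, limma). Yy1 differed by -0.22 and -0.18.

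The 75 tested genes of mitochondrial ribosomal proteins had medians of 0.09 after PTH and 0.02 after YKL-05-093, and 1 of them passed the unadjusted limit in each, higher after PTH and lower after YKL-05-093. Mrpl34 differed by 0.47 and 0.45, Mrps6 by -0.45 and -0.21, and Mrps2 by -0.28 and -0.43. The 83 tested genes named as nuclear-encoded subunits of the respiratory chain had medians of 0.13 and 0.07, and 2 passed the unadjusted limit in each, all higher. Ndufa4l2, a relative of a complex IV subunit, differed by 0.43 and 0.64, and Atp5sl, which the naming rule included although it is not itself a subunit, by 0.42 and 0.36. Cox8b had 0 and 0.596 RPKM in vehicle, 2.44 and 1.60 in PTH, and 1.10 and 1.88 in YKL-05-093, at levels of few reads.

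Between PTH and YKL-05-093, where 11.4% of all genes were higher and 10.9% lower at the unadjusted limit, the lists held 13 of 83 respiratory chain genes (all higher), 8 of 75 ribosomal protein genes (all higher), 7 of 23 RNA processing genes (5 higher, 2 lower), 1 of 15 genes for transcription and replication (lower) and 0 of 6 regulators. At the adjusted limit 6 genes passed in this comparison, all under 2-fold, against 4.88% of all genes higher and 5.14% lower. Beside Mrm1 these were Ndufb4 of complex I (0.43, adjusted p = 0.0264, limma), Sdhaf2, an assembly factor that the naming rule included (0.27, adjusted p = 0.0306, limma), the ribosomal protein genes Mrps31 (0.31, adjusted p = 0.0209, limma) and Mrpl52 (0.27, adjusted p = 0.0391, limma), and Top1mt, the mitochondrial topoisomerase (-0.40, adjusted p = 0.0248, limma). Those 5 were named after their values were seen.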

How the data were processed

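Total RNA of 6 Ocy454 libraries, 2 per condition, was sequenced after depletion of rRNA with directional kits. Alignment by the authors used STAR and mm10/GRCm38, counting used HTSeq and an Ensembl annotation, and the deposited values are linear RPKM, not scaled between libraries. The submitters' processing notes also name CASAVA 1.7. How strand and reads with several matches were handled is not given in the sources used here.

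The deposited RPKM are whole reads divided by length and library total. Totals were recovered from the 37 members, whose values were whole (tolerance 0.001 reads) in all 6 libraries at a length 1 base shorter than annotated. The recovered reads of all genes summed to 99.66% to 99.7% of the totals. Shares were computed from recovered reads, which had been planned as the alternative to annotated lengths.

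Differences were tested with limma 3.58.1 (R 4.3.3) on log2(RPKM + 0.1). A gene was tested where 2 or more libraries reached 0.5 RPKM. Each comparison used its 4 libraries, a trend of the prior variance on mean log2 recovered reads and Benjamini-Hochberg adjustment over all genes tested. Tested on simulated data for PTH against vehicle, 3 runs with 200 genes changed 4-fold recovered 199 to 200, with 1 false call each. The changed genes were drawn from those averaging at least 50 reads, and all simulated libraries shared the same spread. The real vehicle libraries stood further apart, so these runs check the procedure and do not give its power for the members. Fold changes on the log2(RPKM + 0.1) scale understate those of low genes. Library measures were compared with exact two-sided permutation tests. Nuclear copies were found with blastn 2.17.0 (at least 95% identity over at least 50 bases) among GENCODE M21 transcripts.

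The members and lists were chosen with earlier results of these data known. All mRNAs and rRNAs are named. Of the tRNAs, those called, the 5 highest, the 3 with the largest change among those averaging 50 reads or more, and those at 0 in a library are named. Of the lists, the genes called are named or otherwise the 2 with the smallest p per comparison with vehicle. Alternatives were other pseudocounts, filters, scalings, models, a replicate block and leaving out libraries.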

Additional observations from a re-analysis of the deposited data

How the results depend on the processing

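The number of members called for PTH against vehicle was 1 (mt-Tl1). It was 0 with no filter on low values, 2 with 1 fit of all 6 libraries, and 0 to 6 with 1 library left out (5 without vehicle replicate 1, 6 without vehicle replicate 2, 0 without either PTH library). For YKL-05-093 against vehicle it was 0, then 2 with 1 fit of all 6 libraries and 0 to 1 with 1 library left out (mt-Tm without vehicle replicate 1, mt-Tt without vehicle replicate 2). For PTH against YKL-05-093 it was 1 (mt-Tv), then 2 with a pseudocount of 0.01 RPKM or a filter of 0.1 RPKM (mt-Tv and mt-Tt) or by adjusted p alone, and 0 with median-of-ratios scaling, with voom, with 1 fit of all 6 libraries or with any library left out. With no filter and with the trend on the mean value the count was again 1, but the gene was mt-Tt in place of mt-Tv. Shares and ratios moved by less than the spread between replicates.

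For single genes, 666 values kept their direction and their side of the threshold, 59 changed direction, 19 became significant and 12 lost significance. Those that changed direction were of mRNAs and rRNAs and passed the threshold neither before nor after. With 1 library left out, the median log2 difference of the 7 well covered mRNAs ranged from -0.138 to 0.285 for PTH against vehicle, from -0.317 to 0.123 for YKL-05-093 against vehicle and from -0.083 to 0.421 for PTH against YKL-05-093, and in each comparison 6 of the 7 changed direction. For the single genes whose log2 difference changed sign in this way, the ranges for PTH against vehicle were -0.10 to 0.26 for mt-Rnr1, -0.19 to 0.19 for mt-Nd1, -0.091 to 0.37 for mt-Nd2, -0.95 to 0.31 for mt-Atp8, -0.21 to 0.28 for mt-Nd4, -0.17 to 0.29 for mt-Nd5, -0.67 to 0.83 for mt-Nd6 and -0.14 to 0.35 for mt-Cytb. For YKL-05-093 against vehicle the ranges were -0.18 to 0.18 for mt-Rnr1, -0.035 to 0.34 for mt-Rnr2, -0.31 to 0.12 for mt-Nd1, -0.17 to 0.077 for mt-Nd2, -0.25 to 0.25 for mt-Co1, -0.005 to 0.46 for mt-Co2, -0.34 to 1.325 for mt-Atp8, -0.805 to 1.255 for mt-Atp6, -0.43 to 0.39 for mt-Nd5, -0.72 to 0.80 for mt-Nd6 and -0.32 to 0.12 for mt-Cytb. For PTH against YKL-05-093 the ranges were -0.094 to 0.25 for mt-Rnr1, -0.088 to 0.20 for mt-Rnr2, -0.12 to 0.31 for mt-Nd1, -0.043 to 0.42 for mt-Nd2, -0.083 to 0.42 for mt-Co1, -1.64 to 0.023 for mt-Atp8, -0.17 to 0.83 for mt-Co3, -0.33 to 0.49 for mt-Nd5, -0.72 to 0.80 for mt-Nd6 and -0.042 to 0.44 for mt-Cytb. With all libraries kept, signs also turned for values next to 0. With median-of-ratios scaling mt-Nd1 was 0.037 for PTH against vehicle, and for YKL-05-093 against vehicle mt-Rnr1 was 0.049, mt-Nd2 0.003, mt-Co1 0.051 and mt-Nd5 0.032. With library totals without mitochondrial reads mt-Nd1 was 0.030 in the former, and mt-Rnr1 was 0.018, mt-Co1 0.019 and mt-Nd5 0.001 in the latter. With voom mt-Nd1 was 0.004 in the former, and mt-Rnr1 was 0.004 and mt-Co1 0.003 in the latter.

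Over all genes, libraries with the same replicate number did not deviate together (correlations of deviations of -0.03, -0.05 and -0.05 over 14264 genes), so the numbers were not taken to pair them. Among the well covered members, replicate 2 was higher for both rRNAs in each condition. It was higher for 4 of the 7 mRNAs in vehicle and for all 7 in PTH and in YKL-05-093. For the 3 tRNAs these numbers were 1, 3 and 0. With the replicate number as a block, 7, 3 and 2 members were called in the 3 comparisons.

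With 2 libraries per condition, single libraries decide most calls, and 14 of the 37 members had at most 3 reads in every library, so differences in them were not detectable at this depth. The cause of the differences between settings was not tested.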
